A study of Mus musculus with 21 samples.

Results

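To follow how the miRNAs of the cochlea changed around birth, the P0 cochlea was compared with the E16 cochlea by miRNA-seq. The comparison used 6 of the 21 libraries of the series, 2 of E16 and 4 of P0, all made from cochlear sensory epithelium (SE) of wild-type, untreated mice. The animals were C57BL/6JOlaHsd mice of both sexes and the ears of several were pooled, so a library stood for a pool and not for one animal, and no gene was altered in either group. E16 is an embryonic day and P0 the day of birth, and the groups therefore differed in age alone as far as the labels state. Of the 1647 mature miRNAs listed, 835 had over 1 CPM (counts scaled to the library total) in at least 2 libraries of E16 or of P0 and were tested. A differentially expressed (DE) miRNA passed an FDR of 0.05 in edgeR and a fold change of 1.5, and its E16 and P0 libraries did not overlap. Levels are TMM-normalised CPM unless stated otherwise, and log2 fold changes are P0 minus E16, given with their standard error.

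A miRNA is cut from an RNA hairpin, whose 5p and 3p arms can each give a mature strand. The mature strand guides the Argonaute protein to messenger RNAs that pair with its seed, bases 2 to 8, and these messages are then repressed. miRNAs with the same seed form a family, and hairpins that lie close together are often made from 1 primary transcript. In the inner ear, progenitors of the SE leave the cell cycle before birth, and hair cells and supporting cells then differentiate. The miR-183/miR-96/miR-182 cluster is the best known sensory set in this tissue, and mutations in the seed of miR-96 cause hearing loss.

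The sequences of the miRNAs on which the results turn were taken from RefSeq (GRCm38.p6) and are given 5′ to 3′, with the seed in capitals. The first set holds miRNAs of the largest decreases, which share no seed.
miR-335-5p: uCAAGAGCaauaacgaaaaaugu
miR-384-3p: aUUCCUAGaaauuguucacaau
miR-369-3p: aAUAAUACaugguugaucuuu
miR-153-3p: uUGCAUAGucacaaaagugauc
miR-29a-3p: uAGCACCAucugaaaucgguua
miR-19b-3p: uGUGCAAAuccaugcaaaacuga

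The next set holds members of the miR-17-92, miR-106b-25 and miR-322-450 clusters. miR-17-5p and miR-20a-5p, of the miR-17-92 cluster, have 1 seed in common with miR-93-5p, of the miR-106b-25 cluster.
miR-17-5p: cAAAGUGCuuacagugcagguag
miR-20a-5p: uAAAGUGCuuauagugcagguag
miR-93-5p: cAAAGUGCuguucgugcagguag
miR-25-3p: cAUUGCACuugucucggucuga
miR-322-5p: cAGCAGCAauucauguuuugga

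Another set holds induced miRNAs, among them 3 members of the let-7 family and both members of the miR-125 family that were called, each group with its own shared seed.
let-7a-5p: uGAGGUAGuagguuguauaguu
let-7b-5p: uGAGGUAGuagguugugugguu
let-7c-5p: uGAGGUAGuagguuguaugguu
miR-125a-5p: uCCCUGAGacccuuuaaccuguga
miR-125b-5p: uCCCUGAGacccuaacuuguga
miR-193b-5p: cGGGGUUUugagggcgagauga
miR-1224-3p: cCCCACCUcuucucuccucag
miR-455-3p: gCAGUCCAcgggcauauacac
miR-574-5p: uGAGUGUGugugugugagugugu
miR-770-3p: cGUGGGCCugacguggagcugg

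The last pair holds the arms of 1 hairpin, which were called in opposite directions.
miR-7b-5p: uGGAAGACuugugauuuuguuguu
miR-7b-3p: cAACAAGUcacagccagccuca

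The libraries were shallow, and the E16 libraries were the deeper ones. They held 275971 and 447419 counts, against 180671 to 207336 at P0, so that the floor of 3 counts in every library lay at a mean of 6.66 CPM at E16 and 16.5 CPM at P0. Of the tested miRNAs, 191 were at or under this floor at both ages, and no fold change of their own is given, although the plots show their fitted values. List medians are of fitted values, and where miRNAs near the floor moved a median, it is given also at bounds: miRNAs at the floor at both ages are then left out, and those at the floor at 1 age are set to the change from 3 counts per library. The 10 miRNAs of highest level took 53.3% and 55.1% of the counts at E16 and 65.9% to 69.5% at P0. The markers of the labelled tissue were present, since miR-183-5p was among the most abundant miRNAs at both ages. The muscle markers miR-133a-3p, miR-208b-3p and miR-499-5p had no counts in the 6 libraries, and of the 2 muscle markers tested 1 was repressed and none induced.

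Between E16 and P0, 230 of 835 miRNAs were DE (27.5%), of which 71 were induced (8.50%) and 159 repressed (19.0%). Repressed miRNAs outnumbered induced ones, also among the 281 miRNAs that averaged 100 CPM or more at either age, of which 54 were induced and 103 repressed. The median log2 fold change was -0.10 over all tested miRNAs (0.00 at bounds) and -0.57 over the 281. Of the repressed miRNAs 47 were at the floor at P0, whereas 7 of the induced were at the floor at E16. Without the fold and FDR criteria, the libraries of the 2 ages did not overlap for 427 miRNAs (51.1%), of which 149 were higher at P0 (17.8%) and 278 lower (33.3%). The balance depended on scaling, for with library totals in place of TMM the median moved to -0.52 and the calls to 36 induced and 200 repressed, and on depth, for with the E16 counts thinned to the median P0 total the median moved to 0.21 and the calls to 75 induced and 106 repressed. With at least 10 counts in every library of an age required, 89 were induced and 113 repressed. Fold changes are therefore relative to the bulk of miRNAs. It also rested on both E16 libraries, since 130 miRNAs were called without the first and 116 without the second. In a test of single miRNAs by exact permutation, 2 against 4 libraries cannot give a two-sided p under 0.0667, and so the calls rest on the fit across all miRNAs. In bulk tissue, fewer cells of a type and less of a miRNA per cell cannot be told apart.

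**Figure D1:**
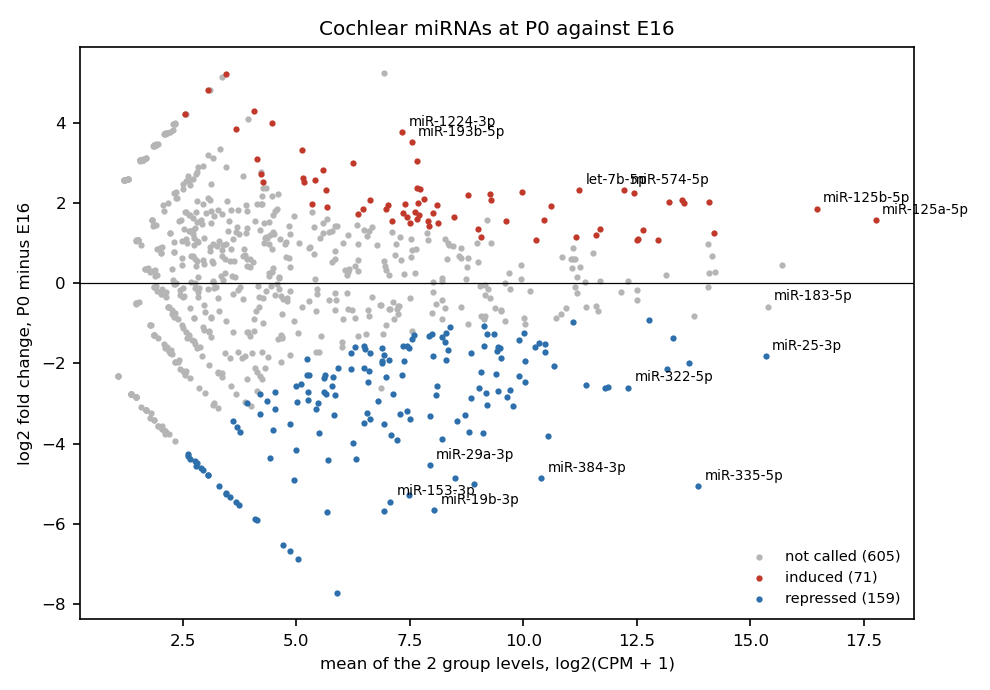
Log2 fold change of P0 minus E16 against the mean of both group levels, log2(CPM + 1), for the 835 tested miRNAs, 1 point each. Red points are the 71 induced miRNAs and blue points the 159 repressed miRNAs, and the diagonal runs of points at low levels are miRNAs with no counts at 1 of the ages.

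Of the 10 largest decreases among DE miRNAs averaging 100 CPM or more at either age, miR-335-5p had the highest level at E16. It lies in an intron of Mest, an imprinted gene expressed from the paternal allele (chr6:30741314-30741336, plus strand). Its level was 29070 and 28500 CPM in the E16 libraries and 815, 773.9, 764 and 1087 CPM in the P0 libraries. Each P0 library was thus far under both E16 libraries, and the level was 33.4-fold lower (log2 fold change -5.06 ± 0.40, FDR = 1.957e-33). miR-384-3p, from the X chromosome, had 2800 and 2399 CPM at E16 and 52.9, 61.1, 113.6 and 128.5 CPM at P0 (log2 fold change -4.87 ± 0.44, FDR = 2.363e-25). miR-376c-3p and miR-369-3p, from the imprinted Dlk1-Dio3 region on chromosome 12, showed decreases of like size and were 32.1-fold and 29.2-fold lower at P0.

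Several repressed miRNAs were near or under the floor at P0. miR-19b-3p, a member of the miR-17-92 cluster, had 511.7 and 515 CPM at E16 and 5.36 to 12.6 CPM at P0, which makes it at least 31.0-fold lower. miR-153-3p, a neuronal miRNA encoded in an intron of Ptprn2, had 214.3 and 308.7 CPM at E16, no counts in 2 P0 libraries and 10.6 and 10.7 CPM in the others (at least 15.8-fold lower). miR-376b-3p was at least 14.5-fold lower, and miR-190a-3p, with 139.3 and 93.5 CPM at E16 and no counts at P0, at least 7.04-fold lower. miR-362-3p had 391.1 and 298.1 CPM at E16 and 0 to 21.4 CPM at P0 (log2 fold change -5.29 ± 0.70). All 10 largest decreases, including miR-29a-3p described further on, kept direction and call in every alternative that could be fitted for them. Their size did not, for with the GC adjustment described further on the log2 fold change was -2.49 for miR-335-5p, -1.95 for miR-384-3p and -1.66 for miR-369-3p.

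**Figure D2:**
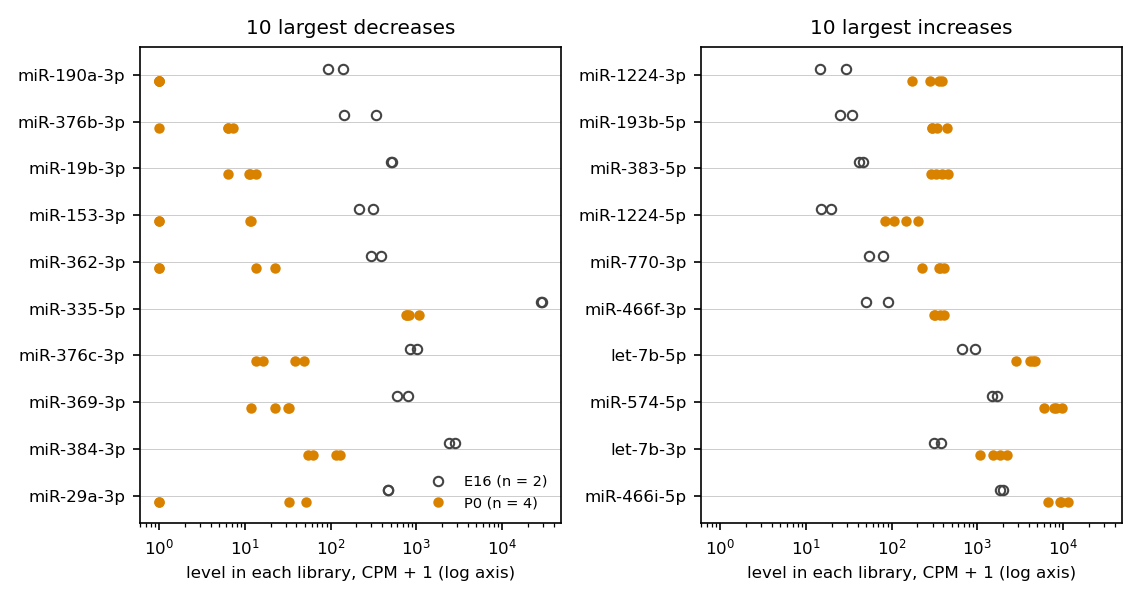
Level of each library, CPM + 1 on a log axis, for the 10 largest decreases and the 10 largest increases among DE miRNAs averaging 100 CPM or more at E16 or P0. Open circles are the 2 E16 libraries and filled circles the 4 P0 libraries. In every row the 2 ages do not overlap, as the call requires, and the spread within an age is widest for miRNAs with few counts.

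Among DE miRNAs averaging 100 CPM or more at either age, the largest induction was that of miR-1224-3p, which lies in an intron of Vwa5b2 (chr16:20604516-20604536). Its level was 13.4 and 28.2 CPM at E16 and 280.5, 173.1, 385.1 and 358.8 CPM at P0 (log2 fold change 3.77 ± 0.62, FDR = 2.912e-08). The other arm of the hairpin, miR-1224-5p, moved with it from 18.8 and 14.1 CPM to between 81.5 and 202 CPM. miR-193b-5p, known from adipose and muscle differentiation, had 24.1 and 33.5 CPM at E16 and 296.4, 295.3, 435.6 and 337.4 CPM at P0 (log2 fold change 3.52 ± 0.56, FDR = 1.11e-08). miR-383-5p was 8.32-fold higher at P0, and miR-770-3p, encoded in an exon of the imprinted non-coding RNA Meg3, was 5.19-fold higher. All of these were of low level at E16, at most 77.7 CPM in any library. All 10 largest increases kept direction and call in every alternative that could be fitted for them.

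The most abundant induced miRNAs belonged to the miR-125 family, which is known from neural and blood cell differentiation. miR-125a-5p was the most abundant miRNA at both ages, with 100900 and 122600 CPM at E16 and 274300, 320900, 401300 and 334500 CPM at P0 (log2 fold change 1.57 ± 0.45, FDR = 0.003443). miR-125b-5p had 42180 and 35980 CPM at E16 and 131300 to 162200 CPM at P0 (log2 fold change 1.86 ± 0.45, FDR = 0.0003497). Both were above the E16 libraries in all 4 P0 libraries. With a single E16 library these calls were lost, for the FDR of miR-125a-5p was 0.133 without the first and 0.0814 without the second, and that of miR-125b-5p 0.0673 without the second. miR-351-5p, which has the same seed but belongs to the miR-322-450 cluster, had 4249 and 5759 CPM at E16 and 4365 to 5610 CPM at P0 (log2 fold change 0.05 ± 0.39), and the ages overlapped.

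Other abundant induced miRNAs were miR-328-3p, miR-574-3p and miR-455-3p. miR-455-3p lies in an intron of the cartilage collagen gene Col27a1, and its level was 4177 and 4711 CPM at E16 and 15980 to 20620 CPM at P0 (log2 fold change 2.07 ± 0.43, FDR = 2.475e-05). miR-328-3p went from a mean of 6822 CPM to 27770 CPM. Both arms of the miR-574 hairpin, from an intron of Fam114a1, were induced, with log2 fold changes of 1.99 ± 0.43 for miR-574-3p and 2.32 ± 0.44 for miR-574-5p.

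The let-7 family, which is held back in stem cells by LIN28 and accumulates as cells mature, had 3 induced and no repressed members of 9 tested 5p strands, miR-98-5p included. Called members made up 33.3%, against 27.5% of all tested miRNAs. All 9 averaged 100 CPM or more at E16 or P0. Of the 281 miRNAs at that level 157 were called, 54 of them induced. The 3 induced let-7 strands were let-7b-5p, let-7c-5p and let-7a-5p. let-7b-5p had 667.1 and 924.2 CPM at E16 and 2789, 4068, 4735 and 4408 CPM at P0 (log2 fold change 2.33 ± 0.44, FDR = 2.108e-06). let-7c-5p went from 3035 and 4356 CPM to between 11850 and 17210 CPM. let-7b-5p and let-7c-5p share a cluster in Lncppara on chromosome 15 (GRCm38, 85706603 to 85707403), where all 3 tested strands were induced, let-7b-3p among them. let-7c-5p is also encoded in Mir99ahg on chromosome 16, where it was the 1 induced of 4 tested strands, and its counts cannot be assigned to either locus. The call of let-7a-5p (log2 fold change 1.07 ± 0.41, FDR = 0.03357) was lost without the first E16 library (FDR = 0.304), the second E16 library (FDR = 0.141) or P0 replicate 2 or 4 (FDR = 0.0957 and 0.0867). let-7d-5p, the most abundant member, had 11480 and 11640 CPM at E16 and 21420 to 25250 CPM at P0 and just missed the FDR threshold (0.054), and its other arm let-7d-3p was induced (log2 fold change 1.25 ± 0.41), a call lost without the first (FDR = 0.20) or the second E16 library (FDR = 0.117).

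Summed over the 9 let-7 strands, the level was 31380 and 36600 CPM at E16 and 61720 to 73020 CPM at P0, 2.00-fold higher. On this scale the sum over all tested miRNAs was itself 1.38-fold higher at P0, with means of 763800 and 1051000 CPM. The median log2 fold change of the family was 0.66, against -0.10 over all tested miRNAs. let-7 members differ by few bases, and how the counting assigned reads that match several of them was not given in the sources used here, so that their single values are less certain than their sum. The same holds for the miR-125, miR-17 and miR-29 families.

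The miR-17-92 cluster, an oncogenic cluster in the host transcript Mir17hg on chromosome 14 (GRCm38, 115043671 to 115044506), had 6 repressed and no induced members of 11 tested, with a median log2 fold change of -2.21 (-1.60 at bounds). The repressed share was 54.5%, against 19.0% of all tested miRNAs. Of the 6 members averaging 100 CPM or more at either age 3 were repressed, against 103 of all 281 miRNAs at that level. miR-20a-5p of the miR-17-92 cluster had 996.6 and 1788 CPM at E16 and 317.5, 173.1, 145.2 and 139.2 CPM at P0 (log2 fold change -2.84 ± 0.43, FDR = 2.041e-09). The other called members named here were miR-19a-3p, with 53.6 and 74.1 CPM at E16 and no counts at P0 (at least 3.86-fold lower), and miR-17-5p, whose call (FDR = 0.01692) was lost without the first E16 library (FDR = 0.198), the second E16 library (FDR = 0.0615) or P0 replicate 1 or 3 (FDR = 0.0543 and 0.0615). The number of repressed members was 5 without either E16 library.

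The related miR-106b-25 cluster lies in Mcm7, which encodes a subunit of the replicative helicase, on chromosome 5 (GRCm38, 138165321 to 138165818). Together with its paralogue on the X chromosome, the miR-106a-363 cluster, it had 4 repressed and no induced members of 12 tested. That was 33.3% repressed, against 19.0% of all tested miRNAs. Of the 4 members averaging 100 CPM or more at either age 2 were repressed, against 103 of all 281 miRNAs at that level. miR-25-3p fell from the second highest level at E16, with 65800 and 63310 CPM, to 18630, 17430, 18200 and 18690 CPM at P0 (log2 fold change -1.82 ± 0.38, FDR = 1.782e-05). miR-93-5p went from 23620 and 17130 CPM to between 4647 and 6330 CPM (log2 fold change -1.98 ± 0.37, FDR = 2.103e-06). miR-20b-5p, of the X-linked paralogue, had 101.8 and 58.2 CPM at E16 and 5.09 to 26.8 CPM at P0, and its call (FDR = 0.01403) was lost without the first E16 library (FDR = 0.25) or P0 replicate 2 or 3 (FDR = 0.0632 and 0.0502). Of the 6 tested miRNAs with the seed AAAGUGC, which come from all 3 of these clusters, 5 were repressed, with log2 fold changes of -2.84 to -1.79, and miR-106a-5p was under the floor at both ages.

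The miR-322-450 cluster on the X chromosome, known for driving exit from the cell cycle in muscle, had 6 repressed and no induced members of 12 tested (median log2 fold change -2.45, or -2.29 at bounds). miR-322-5p, the mouse counterpart of human miR-424, had 8305 and 9097 CPM at E16 and 2551, 1023, 953.4 and 1200 CPM at P0 (log2 fold change -2.60 ± 0.38, FDR = 3.893e-10). miR-503-5p was 15.1-fold lower and miR-542-3p 14.7-fold lower, whereas miR-351-5p of the same cluster was not called. The 5p strands of the miR-15/miR-16 family, known to target cyclins, have the seed of miR-322-5p, but of them miR-16-5p alone was repressed. With its 3p strands, which were the other repressed members, the family had 5 repressed and no induced members of 10 tested. That number was 2 without the second E16 library.

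The miR-183/miR-96/miR-182 cluster, which marks hair cells and sensory neurons, had 4 repressed and no induced members of 6 tested. That was 66.7% repressed, against 19.0% of all tested miRNAs. At 100 CPM or more at either age 4 of 5 members were repressed, against 103 of all 281 miRNAs. Of the 3 markers miR-183-5p, miR-96-5p and miR-182-5p, only miR-182-5p was repressed, and the other repressed members were 3p strands. The main product of the cluster, miR-183-5p, was not called, with 48490 and 53750 CPM at E16 and 35640, 34470, 34810 and 31280 CPM at P0 (log2 fold change -0.59 ± 0.39, FDR = 0.2345). The P0 libraries were all under the E16 libraries, and without the second P16 library, which enters the fit for its estimate of the spread, the FDR was 0.0406. With library totals in place of TMM, miR-183-5p was called (log2 fold change -1.04, FDR = 0.0124) and all 6 members were repressed. miR-182-5p had 2883 and 2884 CPM at E16 and 1263 to 1926 CPM at P0 (log2 fold change -0.98 ± 0.39, FDR = 0.04252). This call was the least stable of those named, lost without either E16 library (FDR = 0.211 and 0.206), without P0 replicate 2, 3 or 4 (FDR = 0.108, 0.103 and 0.11) and without P16 replicate 3 (FDR = 0.0529). miR-96-5p had 109.8 and 81.1 CPM at E16 and 18.9 to 37.5 CPM at P0 and was not called (log2 fold change -1.59 ± 0.69, FDR = 0.06858), but was without the second P16 library (FDR = 0.0375). Its other arm miR-96-3p was repressed (log2 fold change -3.38 ± 0.71, FDR = 2.924e-05). Without the first and the second E16 library, 2 members and 1 member of the cluster were called.

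Most neuronal markers were repressed (80.0%), against 19.0% of all tested miRNAs. miR-124-3p, which promotes the neuronal fate, had 1307 and 770.8 CPM at E16 and 169.4, 162.9, 31.6 and 139.2 CPM at P0 (log2 fold change -3.03 ± 0.43, FDR = 1.552e-10). miR-9-3p went from 1005 and 1039 CPM to between 25.3 and 116.4 CPM (log2 fold change -3.73 ± 0.47), and miR-9-5p of the same hairpins from 959.1 and 883.6 CPM to between 227.3 and 587.4 CPM. The call of miR-9-5p (log2 fold change -1.27 ± 0.42, FDR = 0.01269) was lost without the first E16 library (FDR = 0.143), the second E16 library (FDR = 0.0878) or P0 replicate 2 or 3 (FDR = 0.0564 and 0.0623). Of the 5 neuronal markers, 4 were repressed and none induced, and their summed level was 3053 to 3440 CPM at E16 and 669.3 to 1270 CPM at P0. Of 13 tested members of the brain-enriched list (miR-128, miR-137, miR-138, miR-129, miR-153 and miR-218), 3 were repressed and 1 was induced. Called members of that list made up 30.8%, near the 27.5% of all tested miRNAs.

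Of the epithelial miR-200 family with miR-203 and miR-205, which hold back the transition to mesenchyme, 4 of 12 tested members were repressed and none was induced. The repressed share was 33.3%, against 19.0% of all tested miRNAs. Of the 7 members averaging 100 CPM or more at either age 3 were repressed, against 103 of all 281 miRNAs at that level. miR-429-3p had 11760 and 18100 CPM at E16 and 4567, 3421, 2355 and 3149 CPM at P0 (log2 fold change -2.15 ± 0.37, FDR = 2.194e-07). miR-203-3p, known from stratified epithelia, went from 822.5 and 795.4 CPM to between 79.4 and 155.3 CPM. miR-200c-3p, with the seed of miR-429-3p, had 1549 and 3591 CPM at E16 and 2540 to 2749 CPM at P0, and the ages overlapped.

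The miR-29 family, which targets collagens and DNA methyltransferases, had 42.9% of its tested members repressed, against 19.0% of all tested miRNAs. These were 3 of 7 members, all of them 3p strands, and no member was induced. miR-29a-3p had 466.2 and 469.2 CPM at E16 and 31.8, 0, 50.5 and 0 CPM at P0 (log2 fold change -4.54 ± 0.53, FDR = 1.593e-15). The other 2 of these strands had no counts at P0 and means of at most 14.6 CPM at E16, close to the floor. Without the second E16 library 1 member of the family was called. miR-21a-5p, known from growth and injury, was 8.40-fold lower at P0, going from 1152 and 1984 CPM to between 138.9 and 259.3 CPM (log2 fold change -3.07 ± 0.42).

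The markers of other cell types that could be part of the dissected tissue did not move one way. Their summed levels stand beside a sum over all tested miRNAs that was 1.38-fold higher at P0. miR-126a-3p, which is encoded in the endothelial gene Egfl7, had 5942 and 6374 CPM at E16 and 726.1 to 1413 CPM at P0 (log2 fold change -2.61 ± 0.38, FDR = 3.215e-10). Of 4 leukocyte markers, 3 were repressed, among them the myeloid miR-223-3p (log2 fold change -2.67 ± 0.41), and 1 was induced, while their summed level was 1921 to 2480 CPM at E16 and 2058 to 3094 CPM at P0. The erythroid marker miR-144-3p had 4 counts in E16 replicate 2 and 0 in each of the other libraries, but miR-144-5p of the same hairpin had 144.7 and 157 CPM at E16 and 0, 20.4, 0 and 5.36 CPM at P0 (log2 fold change -4.37 ± 0.82, FDR = 2.108e-06). miR-451a had at most 15.9 CPM at E16 and none at P0. Of 4 cartilage markers, 2 were repressed and 1 was induced, with miR-140-5p repressed (1179 and 1219 CPM at E16, 152.7 to 227.6 CPM at P0) and miR-455-3p induced, and their summed level was 6270 to 6766 CPM and 16380 to 21140 CPM. Of the 4 mesenchymal markers tested, 2 were repressed and 1 was induced. Most of their summed level, 48320 to 50050 CPM at E16 and 51890 to 81150 CPM at P0, was miR-214-3p, which was not called (FDR = 0.3948). The 7 epithelial markers summed to 14500 to 22920 CPM at E16 and 5562 to 7721 CPM at P0. The markers miR-133b-3p, miR-199a-3p, miR-486a-5p, miR-126a-5p and miR-219a-5p were not analysed here. The part of cell composition in the changes was not tested.

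The imprinted Dlk1-Dio3 region on chromosome 12, whose miRNAs are expressed from the maternal allele, contributed the largest number of repressed miRNAs of any cluster. In the miR-379-410 cluster, 23 of 55 tested members were repressed and 2 induced (median log2 fold change -1.67, or -0.63 at bounds). The number repressed was 16 without the first and 9 without the second E16 library. miR-381-3p had 56.3 and 56.4 CPM at E16 and 0 to 10.7 CPM at P0 (at least 3.41-fold lower, FDR = 0.01254), and this call was lost without the first (FDR = 0.0989) or the second E16 library (FDR = 0.113). The 2 induced members were miR-667-3p, from 664.4 and 744.3 CPM to between 1662 and 2480 CPM, and miR-323-5p, from 8.04 and 14.1 CPM to between 71.3 and 95.3 CPM. Their calls were lost without the first E16 library (FDR = 0.0738 and 0.0816), and that of miR-667-3p also without the second (FDR = 0.0558). Nearby, the Rtl1-antisense group had 1 induced and 2 repressed members of 10 tested, and the group of miR-770, which lies closest to Meg3, 1 and 3 of 11. These 2 groups had 30.0% and 36.4% called, against 45.5% in the miR-379-410 cluster and 27.5% of all tested miRNAs. Among miRNAs averaging 100 CPM or more at either age, the miR-379-410 cluster had 1 induced and 12 repressed of 24. Of all 281 miRNAs at that level, 54 were induced and 103 repressed, so the higher share called in the cluster was not seen there. Summed over the miR-379-410 cluster, the level was 16520 to 19440 CPM at E16 and 10390 to 12820 CPM at P0.

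**Figure D3:**
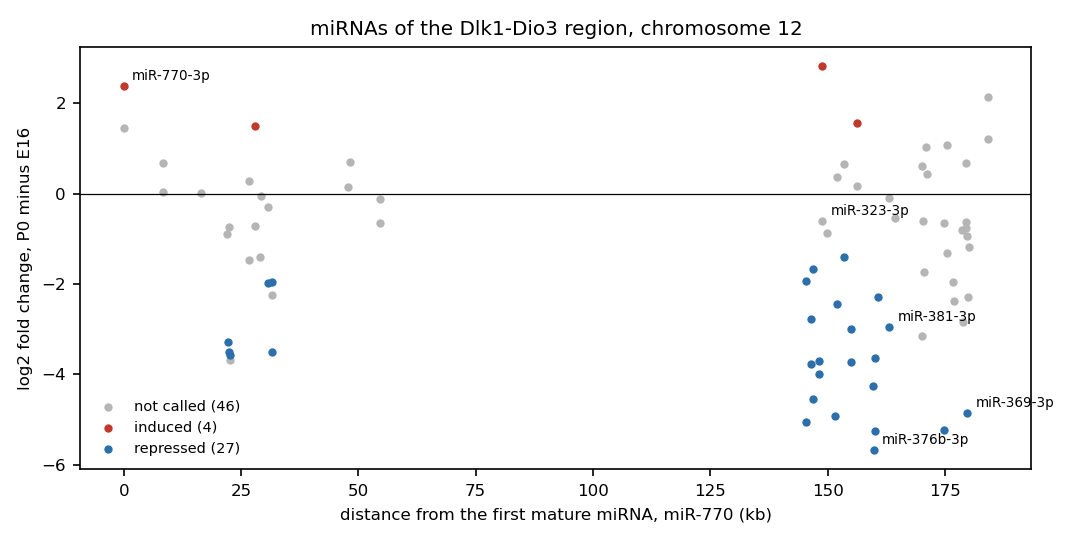
Log2 fold change of P0 minus E16 for the 77 tested miRNAs of the Dlk1-Dio3 region that were matched to RefSeq, against the distance in kb of the mature strand from that of miR-770-5p. Red points are induced, blue points repressed and grey points not called. Repressed and uncalled members lie side by side along the region, with 27 repressed and 4 induced in all.

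The miR-297/miR-466/miR-467/miR-669 list, named after the rodent-specific cluster in the imprinted gene Sfmbt2, had 5 induced and 3 repressed members of 42 tested. Its members were chosen by name and not by locus. The median log2 fold change of the list was 0.97, or 0.90 at bounds. The share called was 19.0%, under the 27.5% of all tested miRNAs. miR-466i-5p had 2007 and 1847 CPM at E16 and 9500, 9312, 11350 and 6673 CPM at P0 (log2 fold change 2.26 ± 0.44, FDR = 3.801e-06). miR-466f-3p was 5.09-fold higher, whereas miR-467a-5p was 5.87-fold lower. These strands are close copies of each other, and their single values are uncertain for this reason. The number of induced members was 3 with library totals and 2 without the second E16 library. Of 255 tested miRNAs with miRBase numbers of 3000 and over, late entries that are mostly of low level, 16 were induced and 5 repressed (8.24%), and 106 of them were under the floor at both ages. The induced number was 3 without the first and 5 without the second E16 library.

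Over the genome, 34 clusters of hairpins within 10 kb of each other had at least 3 tested miRNAs. Of these, 20 had repressed and no induced members, 6 induced and no repressed members, 3 both and 5 neither. Of all tested miRNAs, 8.50% were induced and 19.0% repressed. The miR-193/miR-365 list had 3 induced members of 6 tested (1 without the first E16 library). Of the other families, miR-130/miR-301 had 4 repressed of 6 tested (1 without the first E16 library), miR-30 had 3 of 9 and miR-26 had 2 of 5, with no induced member in any of them. The miR-99/miR-100 family, the miR-221/miR-222 cluster and the miR-132/miR-212 cluster had no DE members of 5, 3 and 3 tested. The miR-181 list had 2 repressed members of 9 tested, the miR-23/miR-27/miR-24 list 1 induced and 2 repressed of 10, the miR-143/miR-145 list 1 induced and 2 repressed of 4, and the miR-199/miR-214 list 2 repressed of 4. Called members made up 22.2% of the miR-181 list, 30.0% of the miR-23/miR-27/miR-24 list and 33.3% of the miR-30 family. These shares are near the 27.5% of all tested miRNAs. Single members were called in the miR-204/miR-211 (induced, of 4), miR-34/miR-449 (repressed, of 5) and miR-191/miR-425 (repressed, of 4) lists. The myelination-linked miR-338/miR-219 list had none called of 4 tested.

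**Figure D4:**
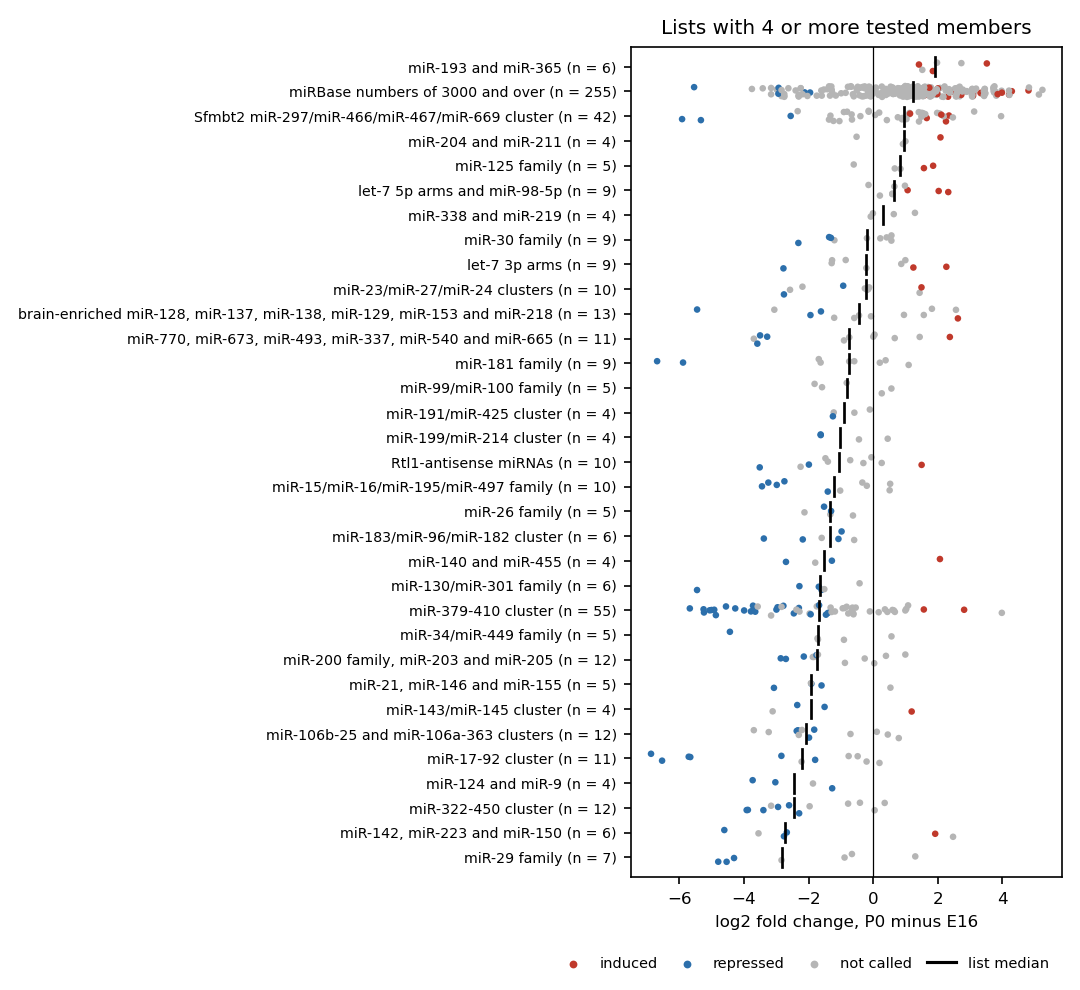
Log2 fold change of P0 minus E16 for each tested member of the families and clusters with 4 or more tested members, 1 point each, in the order of their medians (black bars). Red points are induced, blue points repressed and grey points not called. The medians are of fitted values. Those of the let-7 5p and miR-125 families lie to the right of 0 and those of the miR-17-92 and miR-322-450 lists to the left, each list with members that were not called.

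The arms of a hairpin come from 1 precursor and were compared where both had at least 100 CPM. Of 53 such hairpins, 14 had both arms called the same way (4 induced, 10 repressed), 28 had 1 arm called and 10 neither. Calls were frequent at this level, for 157 of the 281 miRNAs averaging 100 CPM or more were DE, 54 induced and 103 repressed. Only the miR-7b hairpin had its arms called in opposite directions. miR-7b-5p had 444.7 and 546.8 CPM at E16 and 179.9, 127.3, 50.5 and 166 CPM at P0 (log2 fold change -1.91 ± 0.48, FDR = 0.000665). miR-7b-3p had 29.5 and 74.1 CPM at E16 and 137.6, 132.4, 246.2 and 305.3 CPM at P0 (log2 fold change 1.95 ± 0.63, FDR = 0.01051), a call lost without the first E16 library (FDR = 0.211) or P0 replicate 4 (FDR = 0.0634).

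The direction of change was related to base composition. RefSeq gave the sequence of 711 of the 835 tested miRNAs, and the repressed ones among them had a median of 40.9% G and C bases (GC) against 59.1% for the induced and 54.5% for those not called. Of 103 miRNAs with under 40% GC, 49 were repressed and 5 induced (median log2 fold change -2.62). Of 183 miRNAs with at least 60% GC, 4 were repressed and 25 induced (median 1.11). Across the 711 miRNAs, which share the 6 libraries and are not independent replicates, the log2 fold change and GC content had a Pearson's r of 0.473 and a Spearman's rho of 0.491. miR-335-5p, miR-384-3p and miR-369-3p, printed above, have 30.4%, 27.3% and 23.8% GC, whereas miR-770-3p has 72.7%.

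The same contrast was seen library by library, on log2(CPM + 5) without TMM factors. Among miRNAs averaging 100 CPM or more at E16 or P0, the mean log2 level of the 42 with under 40% GC minus that of the 45 with at least 60% GC was 0.27 and 0.26 in the E16 libraries and -2.47, -2.76, -3.07 and -2.65 in the P0 libraries. It ranged from -2.76 to -0.24 over the 4 P16 libraries. In the superior olivary complex (SOC), an auditory brainstem centre sampled at the same ages, Pearson's r between GC content and the change from E16 to P0 was 0.046 over 119 miRNAs with at least 100 CPM in both organs, against 0.684 in the cochlea over the same miRNAs. The measures were unlike, for the SOC change was the difference in mean log2(CPM + 5) without TMM factors. The cochlear change was the fitted log2 fold change with TMM. The difference between the organs was not tested. The cochlear and SOC libraries were made with different kits, and organ and kit cannot be told apart. Whether the E16 and P0 cochlear libraries were made together is not given in the sources used here, and what lies behind the relation was not tested. Among the 48 pairs of arms of 1 hairpin that differed in GC content, the arm with more GC had the higher log2 fold change in 27.

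**Figure D5:**
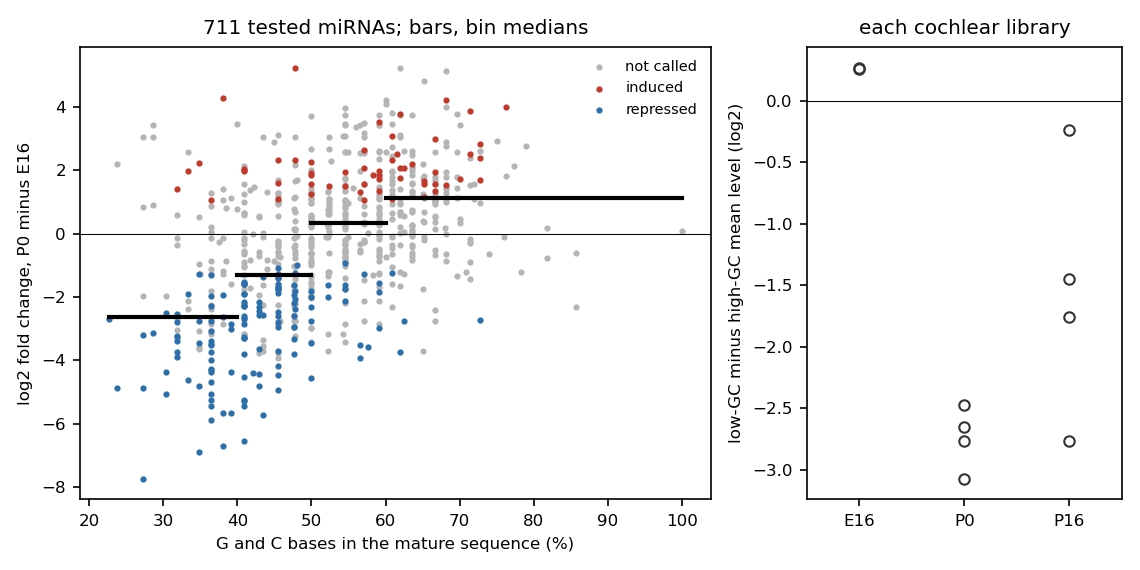
Left, log2 fold change of P0 minus E16 against the percentage of G and C bases in the mature sequence for 711 tested miRNAs, with black bars at the median of each bin (under 40%, 40% to 50%, 50% to 60%, 60% and over). Right, mean log2(CPM + 5), without TMM factors, of low-GC minus high-GC miRNAs in each cochlear library, which is above 0 in both E16 libraries and under -2 in all 4 P0 libraries.

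A fit that removed the GC trend of each library, chosen after the data were seen, showed which changes went beyond that trend. Without the adjustment, 57 of the 711 miRNAs were induced and 139 repressed. With it, 138 were called (60 induced, 78 repressed), of which 98 were also called the same way without the adjustment. The let-7 family then had all 9 5p strands induced, let-7b-5p with a log2 fold change of 3.18 and let-7d-5p with 2.40. miR-125a-5p (1.86), miR-125b-5p (2.13), miR-455-3p (1.78), miR-1224-3p (3.21) and miR-193b-5p (3.13) stayed induced. miR-335-5p (-2.49), miR-19b-3p (-4.10), miR-153-3p (-3.59), miR-29a-3p (-3.15), miR-25-3p (-1.55), miR-93-5p (-1.95) and miR-126a-3p (-1.77) stayed repressed. In the miR-17-92 cluster 5 of 11 members and in the miR-322-450 cluster 4 of 12 were repressed after adjustment.

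Other calls were lost in that fit. The miR-130/miR-301 and miR-26 families had no DE members after adjustment, nor did the 5 of 9 miR-30 members with a known sequence, of which 2 were repressed before. The miR-15/miR-16 family had 1 repressed member of 10, against 5 before. The miR-379-410 cluster had 10 repressed members of 51 with a known sequence, against 21 of the same 51 without adjustment, and none induced. The miR-183/miR-96/miR-182 cluster had 1 repressed member of 6, and the sign of miR-183-5p turned (0.84, FDR = 0.0771). The signs of miR-9-5p (0.81, FDR = 0.143) and miR-7b-5p (0.34, FDR = 0.612) turned too, and miR-429-3p was no longer called (-0.71, FDR = 0.12). The calls of miR-381-3p (FDR = 0.0888), miR-96-3p (FDR = 0.11), miR-144-5p (FDR = 0.0901), miR-182-5p (FDR = 0.264), miR-17-5p (FDR = 0.0772), miR-20b-5p (FDR = 0.0509), miR-667-3p (FDR = 0.0851) and miR-323-5p (FDR = 0.0509) were lost as well. miR-200c-3p, uncalled before, was induced (1.20, FDR = 0.0111).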

How the data were processed

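Small RNA libraries of mouse cochlear sensory epithelium and SOC were sequenced by the study. The authors deposited a single table that gives raw read counts, not normalized, for 1647 mature miRNAs. Per the study's methods, cochlear libraries were made with the SMARTer smRNA-Seq kit and SOC libraries with the Illumina TruSeq Small RNA kit, and reads were aligned with Bowtie to miRNAs of MirGeneDB, while the submitters' processing notes name Bowtie2 2.2.5, DESeq2 and mm10 and the table uses miRBase names. How reads matching several miRNAs were counted is not given in the sources used here. Floors cover counting error only, and PCR copies cannot be told from separate molecules. The standard errors come from the fit and include the spread between libraries.

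Counts were fitted with edgeR 4.0.16 in R 4.3.3 (TMM, quasi-likelihood F test, 1 mean per age) over the 10 cochlear libraries, 2 of E16, 4 of P0 and 4 of P16, the last entering only for the spread. FDR values are Benjamini-Hochberg adjusted over the 835 tested miRNAs, and 241 passed 0.05 before the fold and overlap criteria. Standard errors are the log2 fold change over the root of F. Where all libraries of a group had 3 counts or fewer, folds are bounds against 3 counts per library. Replicates are labelled as separate samples, but nothing ties numbers across ages. No pair of replicates agreed within sampling noise (chi-square per degree of freedom of at least 5.95). Sequences and loci are from RefSeq (GRCm38.p6), matched by name, and hosts from GENCODE M21. The GC adjustment used a lowess (span 0.5) of each library's log2 deviations on GC content over miRNAs of at least 20 CPM, as an offset.

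Alternatives were DESeq2 1.42.0, limma 3.58.1, other scalings, filters, depths, criteria and left-out libraries. Named miRNAs were the 10 largest increases and decreases among DE miRNAs averaging 100 CPM or more at E16 or P0, the 2 of highest level in each list and those the study names, of which the text gives those its results turn on. Those outside this rule (miR-7b-5p, miR-7b-3p, miR-9-3p, miR-17-5p, miR-19a-3p, miR-96-3p, miR-106a-5p, miR-203-3p, miR-323-5p, miR-328-3p, miR-467a-5p, miR-503-5p, miR-542-3p, miR-574-3p, miR-667-3p, miR-8117 and let-7a-5p) were picked after their values were seen. All members and lists were chosen with earlier results of these data known. The scripts were tested on simulated data.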

Additional observations from a re-analysis of the deposited data

Results flagged for a closer look

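Among the 4 P0 libraries, 1 library stood apart from the other 3 for 6 of the 60 named miRNAs examined. Chance flags about 1 in 20 such groups. P0 replicate 1 was high for miR-322-5p (2551 CPM, others 953.4 to 1200), miR-93-5p (6330 CPM, others 4647 to 4922) and miR-182-5p (1926 CPM, others 1263 to 1364). P0 replicate 2 was low for miR-376b-3p (0 CPM, others 5.29 to 6.31, which is 0 counts against 1 count in each). P0 replicate 3 was high for miR-8117 (928.1 CPM, others 0 to 21.2). P0 replicate 4 was high for miR-335-5p (1087 CPM, others 764 to 815). For miR-322-5p, miR-93-5p, miR-182-5p, miR-376b-3p and miR-335-5p, each value still lay under both E16 libraries. The E16 group, with 2 libraries, was not examined.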

How the results depend on the processing

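Of 55 called miRNAs named in the text, DESeq2 lost 2 and limma 6, and RLE size factors none. Of all miRNAs, the number DE was 210 with DESeq2, 194 with limma, 229 with RLE, 205 without a filter, 296 with the 6 E16 and P0 libraries alone and 181 with E16 thinned to the P0 depth. With library totals, 36 miRNAs were induced, in place of 71. Leaving out single libraries gave 116 to 259 DE miRNAs, 27 to 89 of them induced and 87 to 170 repressed. The lowest of these ranges came from the E16 libraries: without the first, 27 were induced and 103 repressed, and without the second 29 and 87, and 11 and 9 named calls were lost, whereas leaving out a P0 or P16 library gave 185 to 259. A single E16 library is assumed there to vary like the other groups. The GC-adjusted fit, chosen after seeing the data, covered the 711 miRNAs with a known sequence and called 138, 60 induced and 78 repressed. Without adjustment, 57 of the same 711 were induced and 139 repressed. The cause of the GC relation was not tested.

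Log2 fold changes that turned sign were those of miR-351-5p (-0.40 with library totals, -0.13 to 0.27 without either E16 library, -0.55 with GC adjustment), miR-200c-3p (-0.40 with library totals, -0.014 without a filter, -0.42 to 0.75 without either E16 library), and, with GC adjustment, miR-183-5p (0.84), miR-9-5p (0.81) and miR-7b-5p (0.34). With the replicate number as a block 156 miRNAs were called (48 induced, 108 repressed). Only 2 of the numbers are shared, and nothing in the labels ties them across ages. Deviations of same-numbered libraries had r = 0.0866 and -0.152 over 242 miRNAs. With 2 E16 libraries the E16 deviations mirror each other, so these values cannot decide whether the numbers pair the samples. At this depth, changes of miRNAs under 3 counts per library were not detectable.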

Other observations

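miR-8117 had the largest increase of any tested miRNA (log2 fold change 5.24, FDR = 1.335e-08) and was not called, because the ages overlapped. Its level was 10.7 and 1.76 CPM at E16 and 21.2, 0, 928.1 and 0 CPM at P0.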
